A study of Mus musculus with 10 samples.

Results

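The expression of 8 genes that write, copy, read or remove DNA methylation was examined in mouse melanoma cells: Dnmt1, Dnmt3a, Dnmt3b, Uhrf1, Tet1, Tet2, Tet3 and Mbd2. They were chosen by symbol and make up 8 of the 55385 gene identifiers measured. RNA was sequenced in 5 libraries of the melanoma line WT31 and 5 of its subline WT31_P5IV, numbered as biological replicates 1 to 5 in each group. WT31 was derived from a mouse with the Tyr::NrasQ61K transgene, which is driven by the tyrosinase promoter of pigment cells, and without INK4a. Both groups carry this genotype. WT31_P5IV was obtained from WT31 by 5 passages over the liver after intravenous injection, and it is a single subline, so what the passages did cannot be told apart from what is particular to this one derivation. No drug was given to either group. The RNA came from sub-confluent cells in culture and not from metastases. The labels do not say whether the replicates came from separate cultures, so p-values measure only the spread between these samples, which may be technical. The comparison asks which of the genes differ between the passaged subline and the parental line. DNA methylation itself was not measured.

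In mammalian DNA, methyl groups are carried mostly by cytosines that are followed by guanine (CpG). Dnmt3a and Dnmt3b set new methyl groups, while Dnmt1 copies existing ones onto the new strand after replication, guided by Uhrf1, which binds CpGs that are methylated on one strand only. Tet1, Tet2 and Tet3 oxidise methylcytosine, the first step of active demethylation, and Mbd2 binds methylated CpGs and brings the NuRD chromatin complex to them. In melanoma, loss of hydroxymethylcytosine, the first product of the Tet enzymes, is a well-known feature of the tumours.

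Promoters of 7 of the 8 genes were found in the RefSeq table (GRCm38.p6), as 12 windows of 300 bases with 250 bases before a start site. They are shown because promoters of this kind are themselves rich in the CpGs on which these enzymes act. The windows held 2 to 57 CpGs, against a median of 7 over the 32851 windows of the table. In 6 of the 7 genes at least 1 window had an observed over expected CpG ratio above 0.6. The exception was Tet3, whose window had a ratio of 0.576 and 22 CpGs. Of all single windows, 35.8% were above 0.6. This share is not like for like, since Dnmt1, Dnmt3a and Uhrf1 have more than 1 window. Dnmt1 has 3 windows and Uhrf1 2, and the other windows of these genes held 2 to 12 CpGs. The stretches below come from the window with the most CpGs of each gene and are the parts upstream of its start site that no annotated exon covers, for Uhrf1 and Dnmt1, which act together at replication, and for Tet2 and Tet3, whose RNA differed in opposite directions. Each runs 5′ to 3′ on the strand of its gene, and capitals mark CpGs. All 4 lie inside the annotated span of their gene and outside its exons.
Uhrf1, chr17:56304063-56304312, plus strand: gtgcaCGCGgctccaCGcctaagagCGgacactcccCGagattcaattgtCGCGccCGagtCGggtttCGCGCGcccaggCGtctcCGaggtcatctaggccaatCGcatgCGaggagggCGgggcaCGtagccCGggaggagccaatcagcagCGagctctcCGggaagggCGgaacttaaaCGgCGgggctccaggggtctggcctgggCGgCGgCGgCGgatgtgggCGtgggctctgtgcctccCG
Dnmt1, chr9:20952624-20952707, minus strand: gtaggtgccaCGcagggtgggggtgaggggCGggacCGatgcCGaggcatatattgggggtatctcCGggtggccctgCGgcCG
Tet2, chr3:133544391-133544640, minus strand: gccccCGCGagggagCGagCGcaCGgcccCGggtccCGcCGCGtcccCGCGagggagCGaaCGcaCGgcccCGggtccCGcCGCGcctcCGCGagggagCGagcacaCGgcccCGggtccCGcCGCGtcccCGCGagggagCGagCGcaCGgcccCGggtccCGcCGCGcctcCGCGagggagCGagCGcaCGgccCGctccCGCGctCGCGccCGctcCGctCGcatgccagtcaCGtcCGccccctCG
Tet3, chr6:83441679-83441754, minus strand: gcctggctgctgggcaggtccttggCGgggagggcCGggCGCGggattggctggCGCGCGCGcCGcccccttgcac
The Tet2 stretch is the densest, with 51 CpGs in 250 bases and short repeats of the same letters, and its whole window held 57. The Uhrf1 stretch has 30 CpGs in 250 bases. The Dnmt1 stretch has 7 CpGs in 84 bases and the Tet3 stretch 9 in 76. The letters TTTGGCGC, TTTCGCGC, TTTCCCGC and TTTGGCGG, which resemble sites of the cell cycle factor E2F, were searched on both strands. Each of the 4 holds a CpG. At least 1 of them occurred in 2.37% of all windows, whose median was 7 CpGs. Among the 12 windows they were found in 2, the CpG-dense windows of Uhrf1 (TTTCGCGC, inside the stretch above) and of Dnmt1 (TTTCGCGC and TTTGGCGC, outside it). Both of these windows held 33 CpGs, so the share over all windows is not a matched background. No match says only that these letters are absent from a window.

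By the annotation (GENCODE M21, GRCm38), Dnmt1 lies at chr9:20907209-20959888 and Uhrf1 at chr17:56303321-56323486. Dnmt3a lies at chr12:3806007-3914443 and Dnmt3b at chr2:153649450-153687730. The Tet genes are at chr10:62804570-62908996 (Tet1), chr3:133463679-133545139 (Tet2) and chr6:83362373-83459084 (Tet3). All are protein-coding genes, and the counts below are sums over all their transcripts, without regard to exon or UTR.

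The libraries held 24255389 to 25750639 estimated counts, and the lowest count of any of the 8 genes in a library was 172, for Tet1. The first principal component of log2 CPM (CPM, estimated counts scaled to a common library size after TMM) held 85.1% of the variance and separated WT31 from WT31_P5IV. WT31 replicates 2 and 3 stood apart from the other WT31 libraries. In them, 637 genes with a transcript of 8000 bases or more had a median log2 CPM of 0.18 and 0.14 above the mean of their group, against −0.15 to −0.07 in the other 3 WT31 libraries and −0.06 to 0.04 in WT31_P5IV. Dnmt3a, Tet1, Tet2 and Tet3 have such transcripts, and the values of the 8 genes and of the lists are given with and without these libraries where they move. All 8 melanocyte markers were detected in both groups, and their summed level was 17600 to 19000 CPM in WT31 and 23100 to 26700 in WT31_P5IV. Of the 7 markers each of macrophages and leukocytes, hepatocytes, endothelial cells, and stellate cells and fibroblasts, 1, 2, 0 and 3 had enough counts to be tested. Summed, they lay at 0.908 to 2.18 CPM in WT31 and 3.58 to 5.12 in WT31_P5IV for macrophages, at 325 to 347 and 528 to 597 for hepatocytes, at 0.158 to 0.492 and 0.161 to 0.463 for endothelial cells, and at 1.73 to 2.27 and 2.78 to 3.52 for stellate cells. The hepatocyte sum is nearly all transferrin (Trf), at 337 ± 9.42 CPM in WT31 and 561 ± 29.4 in WT31_P5IV (SD, n = 5). Defining markers were at or near 0, with 0 counts of Clec4f, Fgb, Serpina1a and Cdh5 in every library, at most 1 of Adgre1, and at most 9 of Alb. Cd68, a lysosomal marker of macrophages, was higher in WT31_P5IV, at 1.37 ± 0.455 and 3.73 ± 0.638 CPM (log2 fold change 1.45, adjusted p = 1.16e-05). The collagen gene Col1a1 was at 0.868 ± 0.2 and 1.73 ± 0.233 CPM, also called higher (adjusted p = 0.000156). Pdgfrb, a receptor of stellate cells, was at 0.52 ± 0.249 and 0.46 ± 0.092 CPM (log2 fold change −0.18, adjusted p = 0.618), and the untested Lrat, Des and Dcn were at 0.171, 0.234 and 0.157 CPM in WT31 and at 0.0674, 0.209 and 0.134 in WT31_P5IV. Col3a1 had at most 3 counts in a WT31 library and 18 in a WT31_P5IV library, and it passed the filter on low counts only through WT31_P5IV, so no test of it is given. Of the 8 melanocyte markers 4 rose and 2 fell, where 34.6% of all genes were called higher and 33.9% lower. With limma on log2(TPM + 0.1) or log2(TPM + 1) 3 were higher and 4 lower, beside 21.4% and 43.7%, and without WT31 replicates 2 and 3 there were 4 and 3. Among them were Pmel, which rose by 1.22 (adjusted p = 1.07e-10), and Tyrp1, which fell by 0.96 on the log2 scale (adjusted p = 3.5e-11). Sox10 was lower by a log2 fold change of −0.14 (adjusted p = 0.0373), a call lost in 6 of 21 alternative settings of the processing, with upper-quartile scaling and without WT31 replicate 4 or 5 or WT31_P5IV replicate 2, 3 or 5 (adjusted p up to 0.116). The part of other cells in the results below was not tested.

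Across the 8 genes the subline had more RNA of Dnmt1, Uhrf1, Dnmt3b and Tet3, less of Mbd2 and Tet2, and no difference that passed the test for Dnmt3a and Tet1. Mbd2 fell to 0.714 of its WT31 level and Tet3 rose to 1.28 times it. With a limit of 0.05 on the adjusted p of the edgeR fit, 6 of the 8 were called, 4 higher and 2 lower. Among all 13620 genes tested, 68.5% were called, 34.6% higher and 33.9% lower, so a called gene was common in this comparison. None of the 8 passed the added limit of a log2 fold change of 1 in size, which 9.1% of the tested genes passed. The median size of the log2 fold change was 0.32 for the 8 genes and 0.3 for all tested genes. For 5 of the 8 genes the CPM ranges of WT31 and WT31_P5IV were apart, as they were for 54.1% of all tested genes. Without WT31 replicates 2 and 3, an alternative chosen after seeing the data, 7 of the 8 were called, and Dnmt1, Dnmt3b, Uhrf1 and Mbd2 stayed called at log2 fold changes of 0.17, 0.37, 0.31 and −0.53. In these bulk samples, fewer cells that express a gene and less RNA per cell cannot be told apart.

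**Figure D1:**
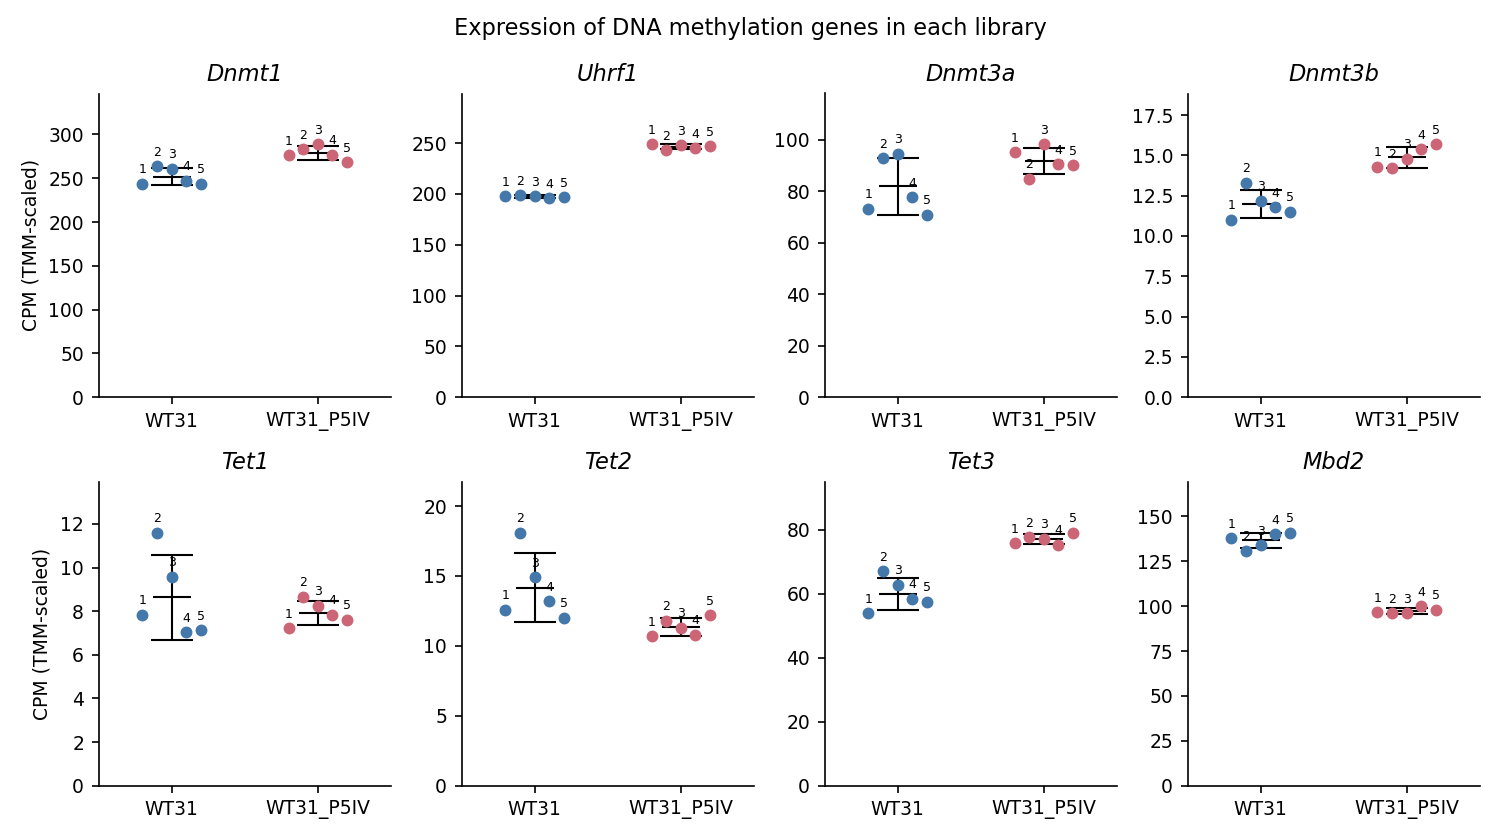
Each panel shows the CPM (TMM-scaled, axis from 0) of 1 gene in the 5 WT31 (blue) and 5 WT31_P5IV (red) libraries, numbered by replicate, with black bars for the mean ± SD. The groups are apart for Dnmt1, Uhrf1, Dnmt3b, Tet3 and Mbd2 and overlap for Dnmt3a, Tet1 and Tet2.

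**Figure D2:**
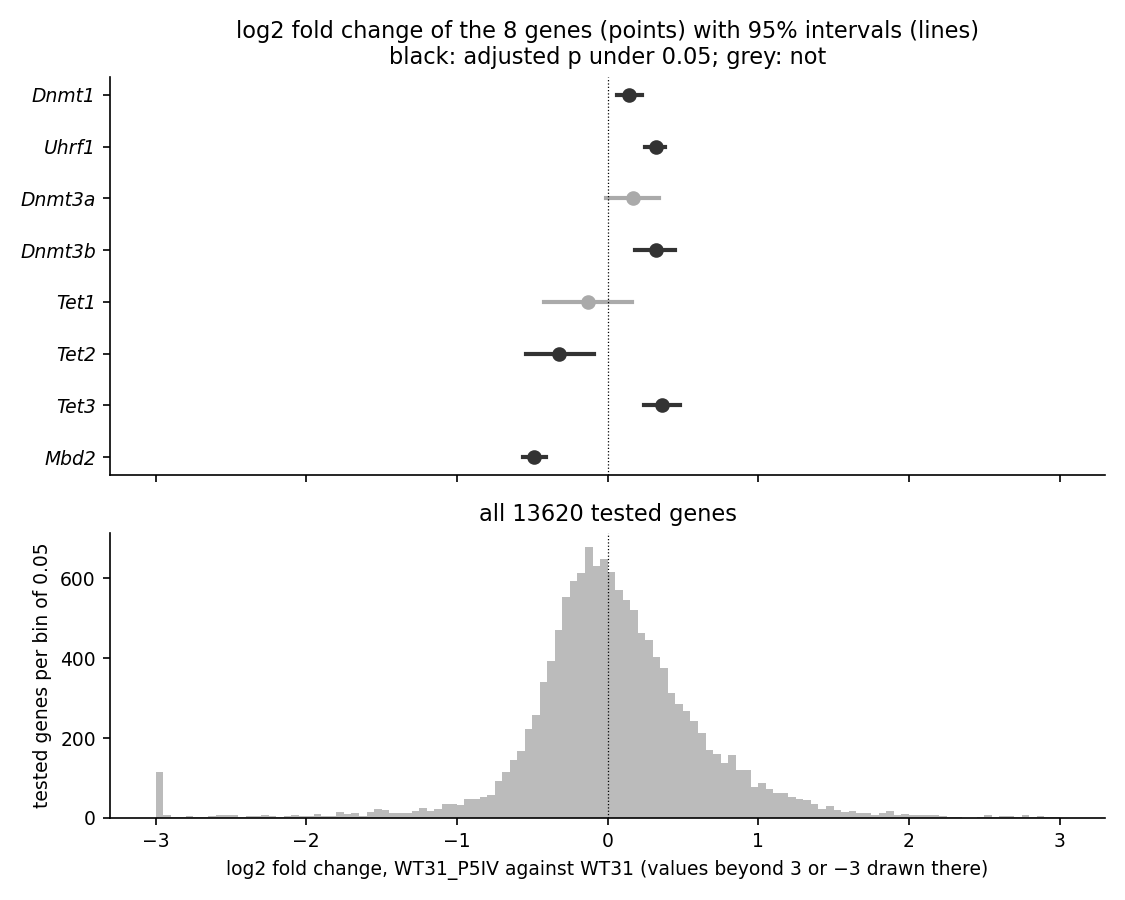
The upper panel gives the log2 fold change of each gene with its 95% interval, and the lower panel the distribution over all 13620 tested genes. The 8 values lie between −0.49 and 0.36, inside the bulk of the distribution.

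The maintenance pair rose together, Uhrf1 by more than Dnmt1. Uhrf1 was at 198, 199, 198, 196 and 197 CPM in WT31 replicates 1 to 5 and at 249, 243, 248, 245 and 247 CPM in those of WT31_P5IV. No library of WT31 came near the lowest of WT31_P5IV, and the spread inside each group was the smallest of the 8 genes relative to its level. The log2 fold change was 0.32 (SE 0.03, fold 1.25, adjusted p = 1.61e-07). Dnmt1 was at 244, 264, 261, 247 and 244 CPM in WT31 and at 276, 283, 289, 277 and 268 CPM in WT31_P5IV. All 5 WT31_P5IV libraries were above all 5 of WT31, but by little, with a log2 fold change of 0.14 (SE 0.04, fold 1.1, adjusted p = 0.00261). Only 25.9% of the tested genes had a smaller change than Dnmt1. In TPM (a share of all transcripts, for which counts are divided by transcript length), Dnmt1 showed 74.7 ± 4.99 in WT31 and 74.0 ± 1.86 in WT31_P5IV (SD, n = 5), a log2 difference of −0.01 where the median of all genes moved by −0.17. WT31 replicates 2 and 3 were at 80.9 and 79.2 TPM, and the other 3 WT31 libraries, at 72.2, 71.5 and 69.7, were below the WT31_P5IV minimum of 72.8. No fit on the TPM scale was run without these 2 libraries. It was not called without TMM scaling (limma voom, log2 fold change 0.07, adjusted p = 0.0768), and Uhrf1 stayed called and higher under all 21 alternatives.

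The de novo methyltransferases were lower in level than Dnmt1. Dnmt3b was at 11.0, 13.3, 12.2, 11.8 and 11.5 CPM in WT31 and at 14.3, 14.2, 14.8, 15.4 and 15.7 CPM in WT31_P5IV. The groups did not overlap, and Dnmt3b rose by a log2 fold change of 0.32 (SE 0.06, fold 1.24, adjusted p = 0.000272). With limma on log2(TPM + 0.1) it was 0.15 and not called (adjusted p = 0.167). Dnmt3a was at 73.3, 92.9, 94.7, 77.8 and 70.9 CPM in WT31 and at 95.3, 85, 98.4, 90.6 and 90.3 CPM in WT31_P5IV. WT31 replicates 2 and 3 lay among the WT31_P5IV libraries, and the other 3 lay below all of them. With all libraries the log2 fold change of Dnmt3a was 0.17 (SE 0.08, 95% interval −0.01 to 0.34) and was not called (adjusted p = 0.0672). Without both of these libraries it was 0.3 (adjusted p = 4.24e-05), and without replicate 2 or 3 alone it was 0.2 (adjusted p = 0.0217) and 0.21 (adjusted p = 0.0183). Without WT31 replicate 1, 4 or 5 it was 0.12, 0.13 and 0.1 and not called (adjusted p = 0.217, 0.171 and 0.211). In the same libraries, Dnmt3a stood 0.19 and 0.22 above its WT31 mean in log2 CPM, beside 0.18 and 0.14 for the long-transcript genes. The part of transcript length in this result was not tested beyond that.

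The 3 Tet enzymes did not move in one direction. Tet3, which has the most RNA of the family here, was at 53.9, 67.1, 62.8, 58.4 and 57.5 CPM in WT31 and at 75.7, 77.6, 77.2, 75.3 and 79.1 CPM in WT31_P5IV. The groups were apart in CPM, with a log2 fold change of 0.36 (SE 0.05, fold 1.28, adjusted p = 1.77e-05). It was 0.43 without WT31 replicates 2 and 3 (adjusted p = 4.39e-08). With limma on log2(TPM + 0.1), where the median of all genes moved by −0.17, it was 0.21 (adjusted p = 0.0413). The TPM ranges overlapped, at 7.58 to 10.0 in WT31 and 9.55 to 10.5 in WT31_P5IV. Tet2, an enzyme best known from blood cell tumours, was at 12.6, 18.1, 14.9, 13.2 and 12.0 CPM in WT31 and at 10.7, 11.8, 11.3, 10.8 and 12.2 CPM in WT31_P5IV. The lowest WT31 library fell below the highest WT31_P5IV library, so the groups overlapped. Tet2 fell by 0.32 on the log2 scale (SE 0.1, fold 0.802, adjusted p = 0.00988). Without WT31 replicates 2 and 3 the log2 fold change was −0.17 (adjusted p = 0.0397), a smaller value that still passed the test. Tet1, known for its role in early embryonic cells, had the lowest counts of the 8 genes. Its level was 7.84, 11.6, 9.57, 7.03 and 7.13 CPM in WT31 and 7.23, 8.66, 8.24, 7.83 and 7.60 CPM in WT31_P5IV. WT31 replicate 2 was the highest of all libraries for both Tet1 and Tet2, and the groups overlapped for Tet1. The log2 fold change of Tet1 was −0.13 (SE 0.12, 95% interval −0.42 to 0.16, adjusted p = 0.376), and it was 0.09 without WT31 replicates 2 and 3 (adjusted p = 0.326) and −0.01, −0.21 and −0.2 without WT31 replicate 2, 4 or 5 alone (adjusted p = 0.942, 0.149 and 0.149), so no direction was detectable at this spread.

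**Figure D3:**
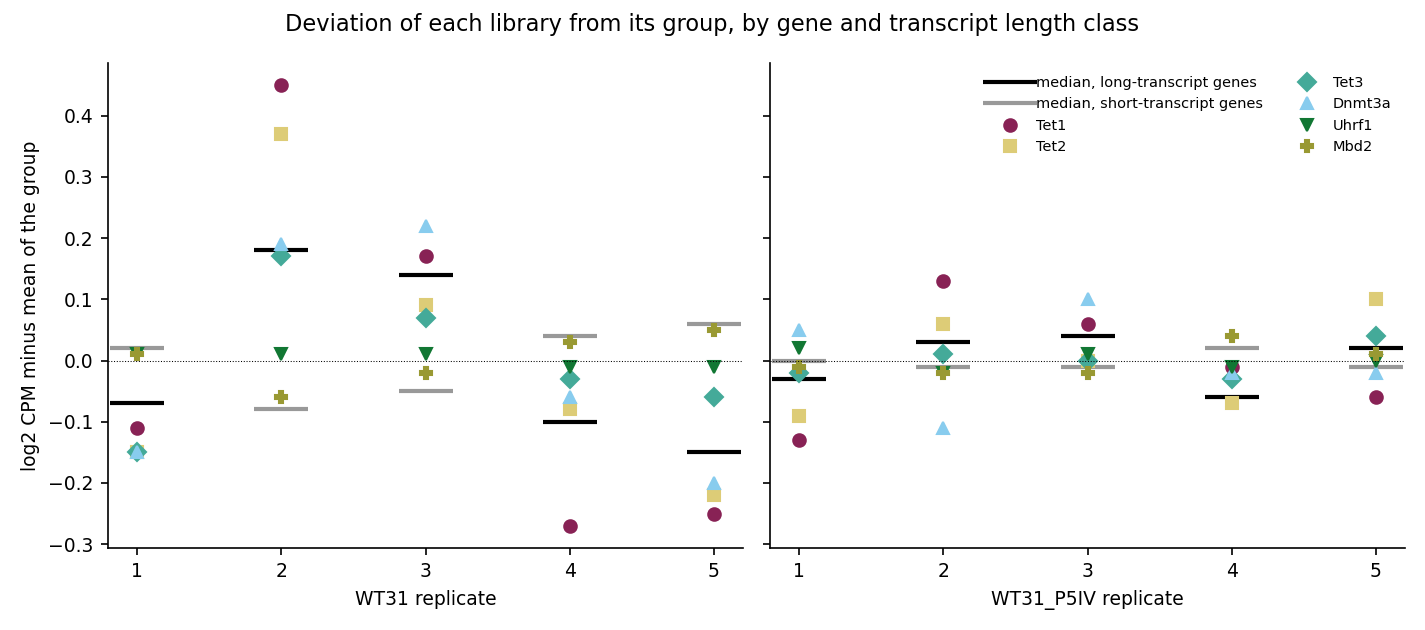
Points give each gene's log2 CPM minus the mean of its own group, by replicate, and bars give the median of genes with long (black, 8000 bases or more, n = 637) and short transcripts (grey, 1000 to 3000 bases, n = 3620). WT31 replicates 2 and 3 stand above 0 for long-transcript genes and for Tet1, Tet2, Tet3 and Dnmt3a, while Uhrf1 and Mbd2 stay within 0.06 of their group mean.

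Mbd2, the reader, had the largest change. It was at 138, 131, 134, 140 and 141 CPM in WT31 and at 96.8, 96.2, 96.2, 100 and 98.1 CPM in WT31_P5IV. Every WT31_P5IV library was below every WT31 library. The log2 fold change was −0.49 (SE 0.03, adjusted p = 1.04e-08), and it stayed between −0.64 and −0.46 over all 21 alternatives. Of the tested genes, 70.3% had a smaller change, and the rest a larger one.

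Per transcript length, the order of the genes was the same in all 5 libraries of a group. In TPM, Mbd2 led Uhrf1 in every WT31 library (131 ± 4.61 against 93.2 ± 3.87), and Uhrf1 led Mbd2 in every WT31_P5IV library (110 ± 3.68 against 84.1 ± 7.27; SD, n = 5). Below them came Dnmt1, Dnmt3a, Tet3, Dnmt3b, Tet2 and Tet1 in both groups. Dnmt3a was at 14.3 ± 2.6 TPM in WT31 and 14.6 ± 1.35 in WT31_P5IV, and Tet3 at 8.57 ± 1.03 and 9.86 ± 0.4. Dnmt3b was at 4.93 ± 0.587 and 5.47 ± 0.378 TPM. Neighbours in this order were apart over libraries, except Dnmt3b and Tet2 in WT31, whose ranges of 4.41 to 5.78 and 2.64 to 4.97 TPM overlapped. Tet1 was last, at 1.51 ± 0.653 TPM in WT31 and 1.45 ± 0.333 in WT31_P5IV.

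The summed TPM of the 3 Tet genes was 13.6 ± 2.41 in WT31 and 13.9 ± 0.674 in WT31_P5IV. WT31 replicates 2 and 3 held sums of 17.6 and 14.0 TPM, while the other 3 WT31 libraries, at 11.7 to 13.0 TPM, lay below all of WT31_P5IV, which began at 13.1. Tet3 made up 63.4 ± 4.18% of that sum in WT31 and 70.8 ± 2.02% in WT31_P5IV. Tet2 made up 25.8 ± 3.21% (22.6 to 30.1%) and 18.9 ± 1.15% (17.7 to 20.6%), with no overlap between groups and the same WT31 range without replicates 2 and 3. Tet1 held 10.8 ± 2.87% and 10.3 ± 2.09%. The ratio of Tet3 to Tet2 was 2.01 to 2.98 in WT31 and 3.48 to 4.12 in WT31_P5IV. Among the methyltransferases the shares were close, with Dnmt1 at 79.6 ± 1.56% and 78.6 ± 0.819% of a sum of 93.9 ± 8.11 and 94.1 ± 3.04 TPM. Here too WT31 replicates 2 and 3 were highest, at 104 and 102 TPM, and the other 3 lay at 85.6 to 90.0, below the WT31_P5IV minimum of 91.8. The ratio of Uhrf1 to Dnmt1 was 1.25 ± 0.0475 in WT31 and 1.48 ± 0.0567 in WT31_P5IV, without overlap. These shares and ratios are descriptions, with no test.

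**Figure D4:**
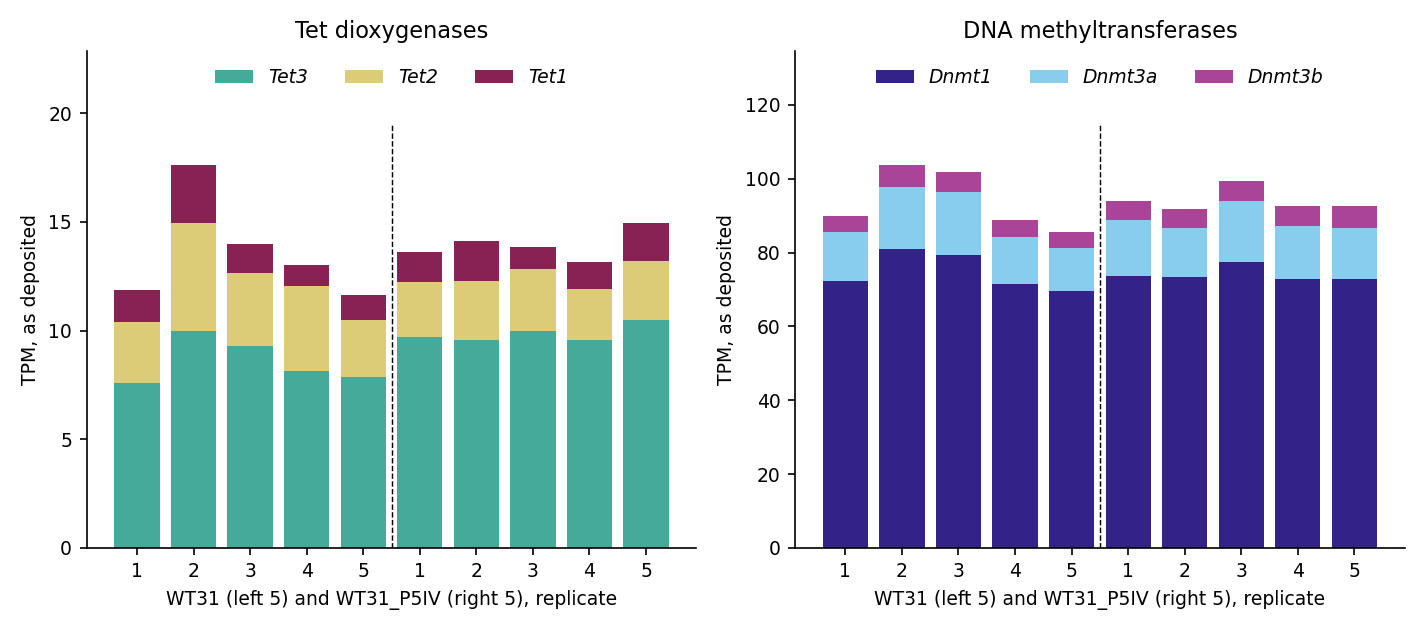
Stacked bars give the TPM, as deposited, of the 3 Tet genes (left) and the 3 methyltransferase genes (right) in each library, with WT31 left of the dashed line. The Tet2 part is smaller in WT31_P5IV and the Tet3 part larger, and WT31 replicates 2 and 3 have the tallest bars of their group in both panels.

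The mean effective transcript length, which follows from the estimated count divided by TPM, can show a change in isoform use that gene totals leave out. This quotient is known only up to a factor of each library, so its scale has to be set. Only Uhrf1 of the 8 genes was called in a limma test of its log2 length, centred on the median over genes, where 34.5% of 12326 genes were called. The centred log2 change of Uhrf1 was −0.07 (SE 0.01, adjusted p = 0.00113). In bases, scaled per library on 749 genes with 1 annotated transcript, its length was 3373 ± 41 in WT31 and 3164 ± 22 in WT31_P5IV (SD, n = 5), a log2 change of −0.09 (adjusted p = 0.00103). On that scale, tested after seeing the data, 794 genes were called in place of 4249, Dnmt1 among them at −0.02 (adjusted p = 0.00964). Every WT31_P5IV library was shorter, from 3133 to 3193 bases against 3331 to 3417. Uhrf1 has annotated protein-coding transcripts from 529 to 3586 bases. With no scale set, the change of Uhrf1 was −0.01 (adjusted p = 0.611), so its call depends on the scale. The bases are approximate, since the mean of Tet3 in WT31, 11143 bases, is above its longest annotated transcript of 10904. The other 7 centred changes were not called and had adjusted p from 0.376 (Tet1) to 0.971 (Mbd2). Tet1 had the widest spread, at 9642 ± 1885 bases in WT31 and 8050 ± 2042 in WT31_P5IV. Sharing of sequence could affect Uhrf1 and Dnmt3b, since 24.2% of the 31-base words of Uhrf1 and 13.5% of those of Dnmt3b occur in other genes, mostly the near copies Gm5648 (0 to 1 count per library) and Dnmt3c (0 to 3 counts).

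Partners of these proteins were taken as lists, whose counts are to be read beside the 34.6% higher and 33.9% lower calls over all genes. Scaling moves this balance: on log2(TPM + 0.1), where the median of all genes moves by −0.17, 21.4% were higher and 43.7% lower, and without TMM 29.4% and 39.7%. Of 7 maintenance cofactors, 3 rose and 2 fell, with a median log2 fold change of −0.06. On log2(TPM + 0.1) 1 was higher and 3 lower, without TMM 2 and 4, and without WT31 replicates 2 and 3 there were 2 and 3. Usp7, a deubiquitinase that acts on Uhrf1 and Dnmt1, fell by 0.33 on the log2 scale (adjusted p = 8.75e-06), and Cdca7, which works with the remodeller Hells, rose by 0.28 (adjusted p = 5.49e-05). Hells itself fell by 0.22 on the log2 scale. Lig1 and Pcna, of DNA replication, rose by 0.16 and 0.12, and were −0.1 and −0.03 at their lowest over the alternatives, which include the TPM scale with its shift of −0.17 in all genes. Lig1 was not called in 4 of the 21 alternatives, with no filter, with the length offset and on both TPM scales, and Pcna in 6, these 4 and those without TMM and without WT31 replicates 2 and 3. Of 7 other methyl-CpG readers, 1 rose and 3 fell (2 and 2 without WT31 replicates 2 and 3). Mbd4, a glycosylase that removes the thymine left by deamination, rose by 0.64 from 7.33 ± 0.709 to 11.4 ± 0.84 CPM (adjusted p = 3.35e-06), and Zbtb33 fell by 0.43 on the log2 scale (adjusted p = 3.8e-05).

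Of 11 listed genes of the NuRD complex, which Mbd2 recruits, 7 fell, 1 rose and 3 were not called. Over all genes 33.9% were called lower. The median log2 fold change was −0.15, where that of all tested genes was 0.01. The remodeller gene Chd3 fell by 0.68 on the log2 scale, from 182 ± 10.9 to 114 ± 3.84 CPM (adjusted p = 5.22e-09), and the deacetylase gene Hdac2 fell by 0.45 on that scale (adjusted p = 9.86e-08). Chd4, the other remodeller, was the one that rose, by 0.18 (adjusted p = 0.00241), a rise not called on either TPM scale or with the length offset. With upper-quartile scaling 7 were called lower, beside 31.1% of all genes, without TMM 9, beside 39.7%, and on log2(TPM + 0.1) 10, beside 43.7%. Without WT31 replicates 2 and 3 there were 8. Mbd3 is not in this list and was counted with the other methyl-CpG readers. It was at 123 ± 13.2 CPM in WT31 and 126 ± 4.06 in WT31_P5IV (log2 fold change 0.03, edgeR adjusted p = 0.646).

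Of 15 tested genes of demethylation repair and Tet cofactors, 5 rose and 6 fell. On log2(TPM + 0.1) 3 were higher and 8 lower, and without WT31 replicates 2 and 3 there were 4 and 8. Gadd45a, a stress-induced gene linked to demethylation, had the largest change of these pathway genes, from 67.8 ± 2.57 to 15.2 ± 1.12 CPM, a log2 fold change of −2.15 (SE 0.05, adjusted p = 1.22e-13). Idh1, a cytosolic source of the Tet cosubstrate, fell by 0.56 on the log2 scale (adjusted p = 5.65e-09), and Ogt, a glycosyltransferase that binds Tet proteins, rose by 0.47 (adjusted p = 6.9e-05). Of 9 methyl donor genes, 3 rose and 2 fell, and 2 and 3 did so on log2(TPM + 0.1). Mat2a, which makes the methyl donor S-adenosylmethionine, rose by 0.49 (adjusted p = 5.54e-09), and Ahcyl1, a relative of the hydrolase that clears its product, fell by 0.49 on the log2 scale (adjusted p = 5.33e-08). Of 12 tested Dnmt3 regulators and histone methylation genes, 4 rose and 2 fell (3 and 4 on that TPM scale, and 7 and 2 without WT31 replicates 2 and 3), with Nsd1, a histone methyltransferase whose mark guides Dnmt3a, falling by 0.35 on the log2 scale (adjusted p = 0.00127) and Ehmt2 rising by 0.32 (adjusted p = 6.89e-06). Dnmt3l was at 2 counts or fewer in every library.

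**Figure D5:**
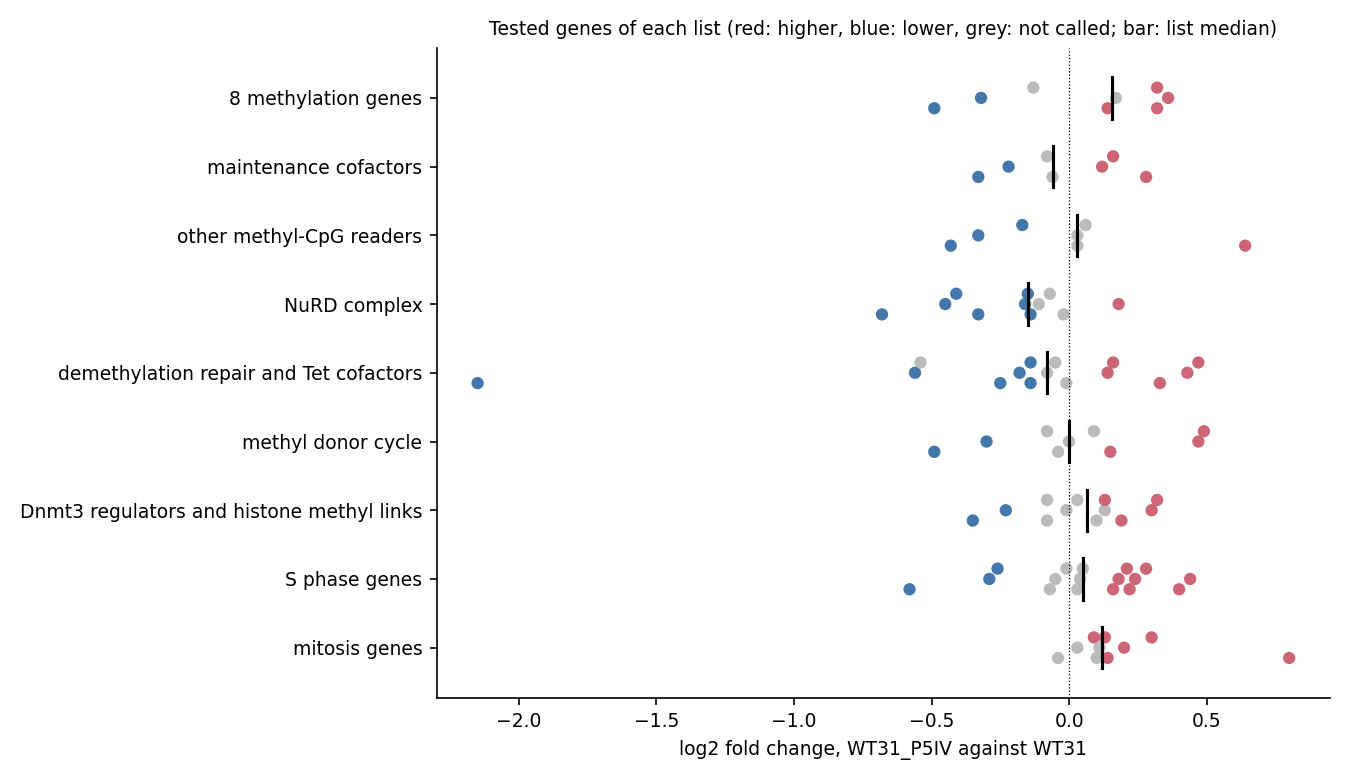
Each point is a tested gene of a list, at its log2 fold change (WT31_P5IV against WT31), red if called higher, blue if called lower and grey if not called, with a black bar at the list's median. NuRD genes lie mostly left of 0, with a median of −0.15. Mitosis genes lie mostly right of 0, with a median of 0.12. The other lists spread to both sides.

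Since Dnmt1 and Uhrf1 are expressed with replication, genes of S phase and mitosis were set beside them. Of 17 S phase genes, 8 rose, 3 fell and 6 were not called, and the median log2 fold change was 0.05. The balance turned on log2(TPM + 0.1), with 5 higher and 8 lower, and was 6 and 5 without TMM, 6 and 4 with the length offset, and 5 and 3 without WT31 replicates 2 and 3. Mcm2 rose by 0.44 (adjusted p = 3.11e-08) and Mcm4 fell by 0.58 on the log2 scale (adjusted p = 5.5e-10), although both are subunits of one replicative helicase. Of 10 mitosis genes, 6 rose and none fell, with a median of 0.12. Without TMM 3 were higher and none lower, and on log2(TPM + 0.1) the counts were 4 and 2. With the length offset or without WT31 replicates 2 and 3 they were 4 and 1. The shares over all genes in each setting are those given for the S phase genes. Mki67 rose by 0.8 (adjusted p = 1.29e-05) and Cenpe by 0.3 (adjusted p = 0.00849). On log2(TPM + 0.1) the medians of both lists were −0.03, where the median of all genes moved by −0.17. The part of proliferation in the values of Dnmt1 and Uhrf1 was not tested.

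For each gene but Tet1, the gene whose centred log2 CPM over the 10 libraries was closest was found among 10417 genes with a mean of at least 100 counts. It was Rbmx for Uhrf1 (root mean square difference 0.0191, log2 fold change 0.32) and Ppfibp1 for Dnmt1 (0.0251). For Dnmt3b it was Luc7l (0.0428) and for Dnmt3a Chd8 (0.0583). Ago3 was closest to Tet2 (0.0374), Jade1 to Tet3 (0.0365) and Litaf to Mbd2 (0.0241). These are descriptions of the libraries, which share the group difference.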

How the data were processed

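RNA-seq of 5 WT31 and 5 WT31_P5IV libraries was used. Per the labels and methods, the authors trimmed reads with Trim Galore 0.6.4 and ran kallisto on GRCm38.p6; the submitters' processing notes give kallisto 0.4.6, while the study's methods name another version and the labels name sequencers of 2 makers. The annotation release is not given in the sources used here. The authors deposited estimated counts and TPM, both summed per gene. Symbols came from GENCODE M21, matched for 55144 of 55385 identifiers. The estimated counts were rounded, filtered with filterByExpr, scaled by TMM and compared with glmQLFTest in edgeR 4.0.16 (R 4.3.3), with Benjamini-Hochberg adjustment over 13620 genes; a gene was called at an adjusted p under 0.05. Standard errors come from the log2 fold change and its F statistic. Length was tested with limma 3.58.1 on log2 of count over TPM for genes with at least 10 counts in every library, centred on the library's median over genes. Lengths in bases were scaled per library on 749 genes with 1 annotated transcript. Alternatives were DESeq2 1.42.0, limma voom, other scaling and filters, a replicate block, TPM and left-out libraries. The tests were tried on simulated data. The members and gene lists were chosen with earlier results of these data known. All members were named. Per pathway list, genes called with a log2 fold change of at least 1 in size and the 2 largest called were named. Hells, Lig1, Pcna, Chd4, Mbd3, Trf, Dnmt3l and the markers were named after their values were seen. Counts per library limit precision, and intervals cover the spread of libraries only. Not every result of the comparison of expression patterns is reported here.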

Additional observations from a re-analysis of the deposited data

Results flagged for a closer look

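Among 32 groups of 5 libraries (CPM and effective length of each gene), 1 held a library set apart by Dixon's test. The mean effective length of Dnmt1 in WT31 was 5352 bases in replicate 3 and 5372 to 5376 in the other 4, a gap of 0.814 of the range, against a critical value of 0.71. Chance flags about 1 in 20 groups.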

How the results depend on the processing

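Of 168 pairs of the 8 genes and 21 alternatives, 154 kept direction and side of the threshold. Dnmt1 was −0.01 on both TPM scales, and 0.07 with an offset for transcript length (adjusted p = 0.183) and 0.09 with no filter (adjusted p = 0.127); the median over all genes moved by −0.17 and −0.16 on the TPM scales, −0.09 with the offset, −0.06 with no filter and −0.07 without TMM, in the same direction as Dnmt1. Tet1 was 0.03 with that offset and 0.09 without WT31 replicates 2 and 3, an alternative chosen after seeing the data. Dnmt3b was not called with limma on log2(TPM + 1), at 0.13 (adjusted p = 0.162). Dnmt3a was called with upper-quartile scaling, at 0.2 (adjusted p = 0.0267). The cause of the other changes was not tested. Between 4 and 7 of the 8 genes were called. The count of genes past a log2 fold change of 1 was 1240, but 2319 with no filter, 698 with at least 10 counts in every library and 465 on log2(TPM + 1). The filters change how many low genes are tested, and the pseudocount shrinks the folds of low genes.

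Leaving out 1 library at a time gave 8965 to 9444 calls, 1265 to 1336 past the fold limit, and 6 to 7 of the 8 genes. The log2 change in effective length of Dnmt3a was 0.03 without centring, and that of Dnmt1 was 0.06 (adjusted p = 0.0262). Scaled on genes with 1 transcript, an alternative added after seeing the data, 794 genes were called in place of 4249, and the changes were −0.02 for Dnmt1, Tet3 and Mbd2 and −0.01 for Dnmt3b. With 1 library left out, length changes ranged from −8.4e-05 to 0.0033 for Dnmt1, −0.0022 to 0.02 for Dnmt3b, −0.0037 to 0.01 for Tet3 and −0.02 to 0.04 for Mbd2.

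Same-numbered libraries had correlations of −0.05, 0.03, 0.45, 0.19 and −0.15 for replicates 1 to 5, after centring on each group. For WT31 replicates 3 and 4 the most correlated WT31_P5IV library had the same number. For replicates 1, 2 and 5 it had another number. So few correlations cannot tell whether the numbers pair the samples. A replicate block gave 9380 calls; Dnmt3a was then 0.17 (adjusted p = 0.0319), and no call of the other 7 genes changed. Of the 12 Dnmt3 regulators, 6 were then higher and 2 lower, in place of 4 and 2.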

Other observations

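Of 20 germline genes known to be silenced by promoter methylation in somatic cells, 18 had too few counts to be tested, and 8 had no count in any library. Sycp3, of the synaptonemal complex, passed the filter on low counts through WT31, where it reached 50 counts against at most 11 in WT31_P5IV, so no test of it is given. It was at 1.32 ± 0.507 CPM in WT31 and 0.375 ± 0.0948 in the subline (SD, n = 5). Brdt, a testis bromodomain gene, was at 2.4 ± 0.428 and 1.24 ± 0.176 CPM, a log2 fold change of −0.96 (SE 0.16, edgeR adjusted p = 9.36e-05). It was called lower under all 21 alternatives. Brdt had at most 71 counts in a WT31 library and 34 in a WT31_P5IV library.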
